A study of Mus musculus with 12 samples.

Results

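Cells taken from the lungs of mice after removal of 70% of the liver were compared with cells of mice whose liver was intact, with the 9 arrays made 1, 3 and 7 days after the resection treated as 1 group against 3 intact arrays. The comparison uses all 12 arrays of the series: 3 per group in 4 groups, each described in the sample titles as a biological replicate. The animals were male C57 Black mice; their age, and whether the intact mice had a sham operation, are not given in the sources used here. Cells were collected with magnetic beads carrying an antibody to Siglec-F, their total RNA was isolated with QIAZOL, and it was hybridised to the Clariom S mouse array. The features compared are the 22206 probe sets that are not controls, out of 28846 in the table, of which 19572 have 1 gene symbol and cover 19505 genes. The question is which RNAs were higher or lower after resection at all 3 times together, not at 1 of them.

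Alveolar macrophages live on the inner surface of the air sacs, where they take up inhaled particles and recycle surfactant, and in mice they carry Siglec-F. Eosinophils carry Siglec-F as well, and a bead-based sort of lung cells can keep neutrophils, lymphocytes, epithelium and vessel cells beside the macrophages. Removal of a large part of the liver starts regrowth of the organ and a systemic acute phase response, in which circulating neutrophils and serum amyloid proteins rise. In bulk RNA, fewer cells of a type and less RNA per cell cannot be told apart.

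The labelled cell type was well represented on every array. Of 24 listed alveolar macrophage identity genes, 22 were measured, each with an intact mean above the background limit, which is 5.28 on the log2 scale, the 95th percentile of 5222 intron control probe sets (median over the 12 arrays). The mean log2 level of these genes ran from 8.73 to 8.95 on the intact arrays and from 8.17 to 9.07 on the resected arrays. The groups were not alike in array quality. Exon and intron controls were set against each other by the area under the curve, which was 0.8775 to 0.8879 on intact and 0.8094 to 0.8801 on resected arrays, and it was below 0.84 on 3 resected arrays (replicate 2 of day 1, replicate 1 of day 3 and replicate 2 of day 7). The median of the intron controls was higher on every resected array (2.44 to 2.76) than on any intact array (2.39 to 2.43). A labelling control, dap, was above 5 on 3 resected arrays, and a hybridisation control, bioB, was above 8 on all arrays of days 1 and 7 and below 8 on all arrays of day 3 and of intact mice. The part of these measures in the differences below was not tested, but values with them as a term, or without the arrays concerned, are given beside the results.

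A small set of probe sets separated resected from intact arrays at all 3 days, and most of it was lower after resection. Of the 22206 probe sets, 27 passed limma's test at an adjusted p of 0.05 (0.122%): 4 were higher (0.018%) and 23 lower (0.104%). The 4 that rose were Mrgpra2b, Slc40a1, Mmp9 and Gca. The 23 that fell include genes of connective tissue (Col3a1, Dpt, Mxra8), of blood vessels (Tie1, Ecscr, Ephb4), of lymphocytes (Gzma, Gzmb, Ccl5, Icos) and of epithelium (Sftpd, Tppp3), the monocyte gene Ly6c2, and 1 probe set without a gene symbol. No resected array overlapped the intact arrays in any of the 27. Differences ran from 1.03 to 2.30 in size on the log2 scale.

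Against the whole array the number of changes was small. An unadjusted p of 0.05 (limma) was passed by 1120 probe sets, or 5.04%, with 267 higher (1.2%) and 853 lower (3.84%). Without any difference between the groups, 1110.3 would be expected at that threshold, so the total is near the chance level. Groups did not overlap for 115 probe sets that were higher (0.518%) and 204 that were lower (0.919%). The median difference was 0.00 on the log2 scale over all probe sets, and the difference was below 0 for 51% of genes and above 0 for 49%. With 9 arrays against 3, an exact permutation test over the 220 splits of the arrays can give a two-sided p no smaller than 0.00455. Each of the 27 probe sets reached that value. They were picked by their separation on the same arrays, so this is no independent support.

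**Figure D1:**
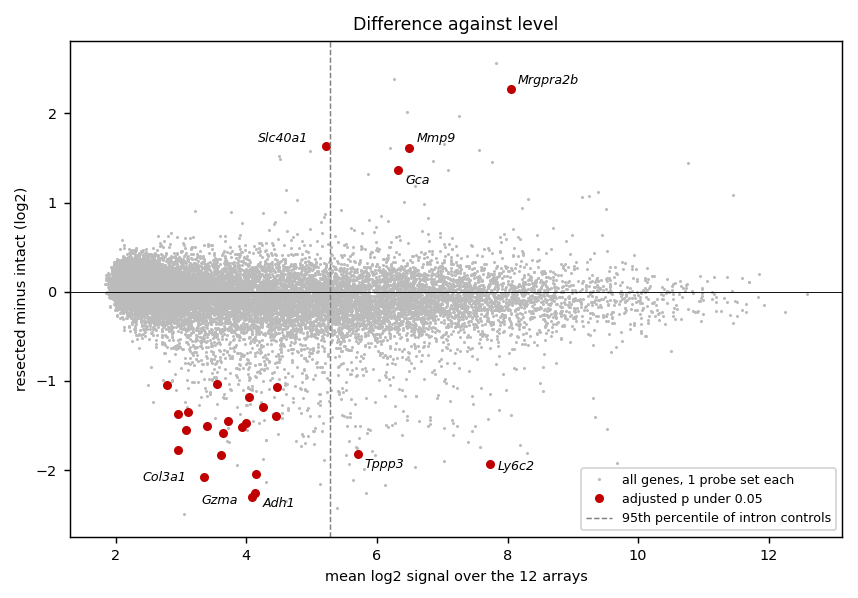
Each point is 1 of the 19505 genes, by its brightest probe set: the horizontal axis is its mean log2 level over the 12 arrays and the vertical axis its log2 difference, resected minus intact. The 4 genes that were higher and the 22 that were lower at an adjusted p of 0.05 are in red, and most of those that were lower lie left of the dashed line, which is the background limit of 5.28.

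Among the 4 genes that rose, Mrgpra2b moved most. It encodes a Mas-related G protein-coupled receptor that neutrophils express. Its log2 level was 6.95, 6.28 and 5.82 on the 3 intact arrays, and 7.81 at the lowest, 8.82 at the median and 9.57 at the highest of the 9 resected arrays. Every resected array was thus above every intact one, and the difference was 2.27 ± 0.35 (SE), a 4.81-fold rise (adjusted p = 0.0349). Its near-identical neighbour Mrgpra2a differed by 2.02 ± 0.62 with adjusted p = 0.463, and probes of the pair may share RNA.

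Slc40a1 encodes ferroportin, the protein through which macrophages export iron. The intact arrays gave 4.18, 3.77 and 4.03, below the background limit, and the resected arrays ran from 5.04 through a median of 5.66 to 6.66. The difference was 1.64 ± 0.26, or 3.12-fold (adjusted p = 0.0349). No other iron or heme handling gene passed the test, so 1 of 18 measured rose past it, where 0.0205% of all genes did. Of the 18, 9 were higher and 9 lower, and the median difference was 0.01. Steap4, a metalloreductase, came nearest at 0.87 ± 0.23 (adjusted p = 0.299), while Hmox1, the heme oxygenase, was at -0.50 and Trf, transferrin, at 0.04.

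Mmp9, a gelatinase stored in neutrophil granules and also made by macrophages, was 5.95, 5.04 and 4.87 on intact arrays. On the resected arrays it ran from 6.13 through a median of 6.94 to 7.46. The nearest arrays of the groups lay close together, and the difference was 1.62 ± 0.28 (3.07-fold, adjusted p = 0.0462). Gca encodes grancalcin, a calcium-binding protein of neutrophils. Its levels were 5.10, 5.54 and 5.26 on intact arrays, and 6.11, 6.74 and 7.35 at the lowest, median and highest resected array. It rose by 1.37 ± 0.24 (2.58-fold, adjusted p = 0.0433).

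Of the 4 genes, Mrgpra2b and Gca have a promoter in the RefSeq table used here (build GRCm38.p6, 250 bases before to 50 after the start). They are shown because they are the only genes past the test in the upward direction for which the sequence was at hand. Both are written 5′ to 3′ on the gene's strand, Mrgpra2b at chr7:47489533-47489832 (minus strand) and Gca at chr2:62664077-62664376 (plus strand). Capitals mark matches, on either strand, to a CCAAT box (CCAAT), a GC box (GGGCGG) or a C/EBP motif (TTNNGNAA).
Mrgpra2b: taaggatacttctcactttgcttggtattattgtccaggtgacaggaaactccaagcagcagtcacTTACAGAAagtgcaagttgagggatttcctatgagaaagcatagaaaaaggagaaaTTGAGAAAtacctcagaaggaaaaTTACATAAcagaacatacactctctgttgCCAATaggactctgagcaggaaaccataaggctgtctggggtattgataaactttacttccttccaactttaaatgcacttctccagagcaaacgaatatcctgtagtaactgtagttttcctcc
Gca: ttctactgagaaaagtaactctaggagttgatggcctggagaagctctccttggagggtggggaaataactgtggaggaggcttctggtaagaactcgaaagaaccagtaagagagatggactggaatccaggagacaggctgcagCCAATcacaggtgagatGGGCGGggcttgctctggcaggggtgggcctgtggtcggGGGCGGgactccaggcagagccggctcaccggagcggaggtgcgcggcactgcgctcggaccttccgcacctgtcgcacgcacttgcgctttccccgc
Mrgpra2b holds 3 C/EBP matches and 1 CCAAT box, and Gca holds 1 CCAAT box and 2 GC boxes. Such matches are common: of 32851 promoters of the same length, 40.7% hold the C/EBP motif, 37.4% the CCAAT box and 35.7% the GC box. Slc40a1 and Mmp9 are named only.

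**Figure D2:**
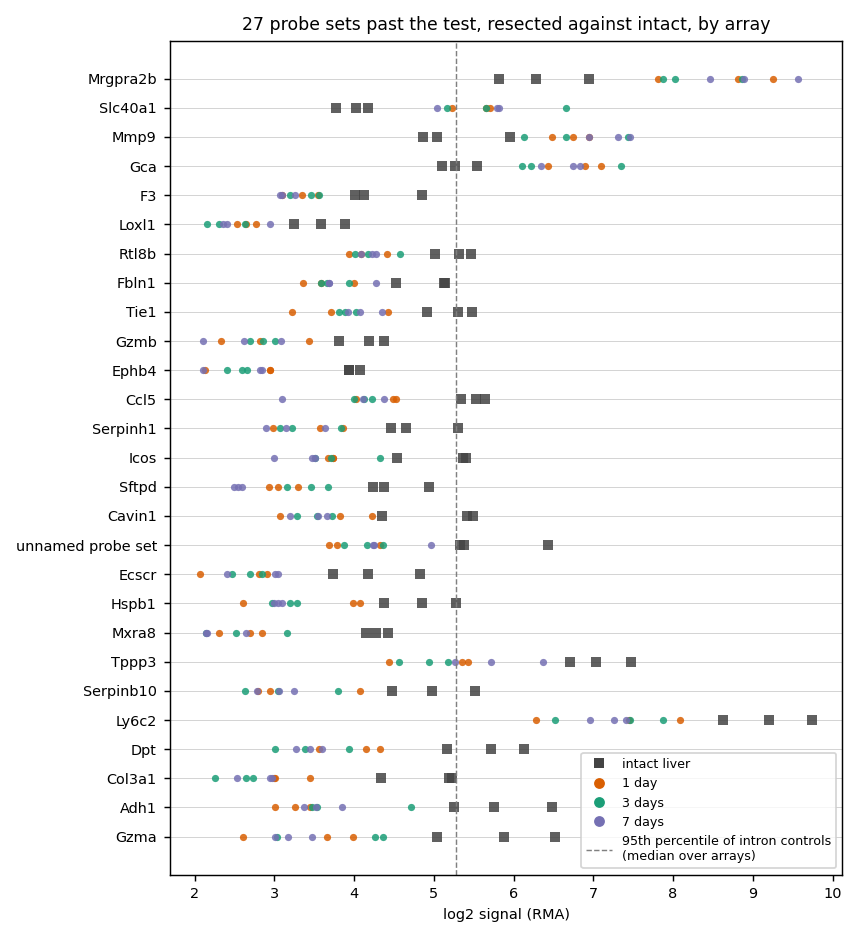
Log2 level of each of the 27 probe sets past the test on each of the 12 arrays, with intact arrays and the arrays of days 1, 3 and 7 in separate colours. The dashed line is the background limit of 5.28, and for every probe set the 9 resected values lie on 1 side of the 3 intact values.

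Other neutrophil genes were higher as a group but mostly without passing the test. Of 26 listed, 25 were measured: 20 were higher and 5 lower, the median difference was 0.72 against 0.00 over all genes, 2 rose (Mmp9 and Mrgpra2b), where 0.0205% of all genes did, and 7 were higher without overlap, against 0.513% of all genes. The list's mean level was 5.74 to 6.04 on intact arrays and 5.98 to 7.12 on resected arrays, so that only the lowest resected array, replicate 2 of day 1, reached the intact range. Lcn2, the siderophore-binding lipocalin of neutrophil granules, was 9.85, 9.10 and 10.07 on intact arrays and 10.32, 11.24 and 11.70 at the lowest, median and highest resected array. Its difference was 1.45 ± 0.27 and its adjusted p was 0.0621. Cxcr2, the receptor through which neutrophils follow chemokines, differed by 1.37 ± 0.28 (adjusted p = 0.0951). Stfa2, a stefin that inhibits cysteine proteases and has near-identical neighbours, differed by 1.97 ± 0.40 (adjusted p = 0.0977). S100a8 and S100a9, the subunits of calprotectin, differed by 1.12 ± 0.32 and 1.07 ± 0.28 (adjusted p = 0.376 and 0.299), and replicate 1 of the intact mice overlapped the resected arrays for S100a8. Granule genes of neutrophil precursors were near 0: Elane was at -0.14, Mpo at 0.14, Ltf at -0.14 and Ngp at -0.09.

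When the 3 arrays of weak control separation were left out, 12 of the 25 neutrophil genes were higher at an adjusted p of 0.05, where 0.226% of genes were. They were S100a8, S100a9, Lcn2, Mmp8, Mmp9, Cxcr2, Retnlg, Mrgpra2a, Mrgpra2b, Stfa2, Stfa2l1 and G0s2. That setting was known from earlier results of these data.

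The acute phase list gave a single large difference beside Lcn2. Saa3, the serum amyloid A that macrophages and epithelium make locally, was 5.44, 6.18 and 6.11 on intact arrays and 6.63, 8.21 and 9.89 at the lowest, median and highest resected array. The groups did not overlap, but the resected arrays were widely spread, and the difference of 2.56 ± 0.60 had adjusted p = 0.189. By day it was 2.98, 3.04 and 1.66. Of the 14 measured acute phase genes 8 were higher and 6 lower, with a median of 0.21 and none past the test. The liver-type Saa1 differed by 0.54 and haptoglobin, Hp, by 0.46.

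Glucocorticoid-induced genes likewise held 1 large difference. Fkbp5, a co-chaperone that steroid hormones induce, was 6.29, 6.75 and 6.97 on intact arrays and 7.43, 8.14 and 9.33 at the lowest, median and highest resected array, a difference of 1.46 ± 0.33 with adjusted p = 0.155. Of the 19 members measured, 9 were higher and 10 lower, the median was -0.03 and none passed. Tsc22d3 was at 0.25 and Per1 at 0.02, whereas Zfp36 was at -0.56 and Cdkn1a at -0.49. Cxcl13, the chemokine that attracts B cells, had one of the largest differences on the array, 2.39 ± 0.49. Its intact values were 4.28, 4.09 and 5.03, the lowest resected value of 5.02 just overlapped them, the resected median was 6.98 and the highest 8.18. The adjusted p was 0.101 and the exact permutation p was 0.00909. Adgre1, a surface receptor used as a general macrophage marker, was 7.03, 7.04 and 7.05 on intact arrays and 7.15 to 7.78 on resected arrays, a small difference of 0.53 ± 0.14 without overlap (adjusted p = 0.275).

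The falls were led by genes of fibroblasts and their matrix. Col3a1, the chain of type III collagen, was 4.34, 5.23 and 5.19 on intact arrays and 2.26, 2.95 and 3.45 at the lowest, median and highest resected array. It fell by 2.08 on the log2 scale (SE 0.23, 4.23-fold), with the smallest adjusted p of the comparison, 0.00562. Mxra8, a membrane protein of mesenchymal cells, reached that p as well. Its intact values were 4.15, 4.43 and 4.27, its resected values ran from 2.14 through 2.52 to 3.16, and it fell by 1.77 (SE 0.21). Dpt, dermatopontin, a matrix protein that binds decorin and collagen, was 5.17, 5.72 and 6.13 against a resected range of 3.01 to 4.33 with a median of 3.56, and it fell by 2.04 (SE 0.26, adjusted p = 0.0121). Every one of these resected levels is below the background limit.

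Fibulin 1 (Fbln1), the collagen chaperone Serpinh1 and the elastin-crosslinking enzyme Loxl1 fell by 1.18, 1.45 and 1.04. Their intact means were 4.93, 4.81 and 3.57, all below the background limit. The fibroblast and smooth muscle list as a whole had 17 of 18 genes measured, and all 17 were lower, with a median of -1.04. Of these, 4 fell (Col3a1, Dpt, Fbln1 and Loxl1), where 0.113% of all genes did, and 5 were lower without overlap, where 0.959% were. The mean level of the list was 4.49 to 5.05 on intact arrays and 3.09 to 4.18 on resected arrays. Some brighter members did not pass: Mfap4, a microfibril protein, was at -2.26 with adjusted p = 0.378, and Dcn, decorin, at -1.99 with adjusted p = 0.677. Mgp, an inhibitor of calcification, differed by -1.73 (adjusted p = 0.0621).

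Promoters of Col3a1 and Dpt are shown because, of the 4 genes of the list past the test, these had the largest differences. They lie at chr1:45311288-45311587 and chr1:164796413-164796712, both on the plus strand of GRCm38.p6, and come from RefSeq. Capitals mark the letters of the TATA box (TATAAA) or the C/EBP motif (TTNNGNAA); the C/EBP run in Col3a1 holds a pair of overlapping matches.
Col3a1: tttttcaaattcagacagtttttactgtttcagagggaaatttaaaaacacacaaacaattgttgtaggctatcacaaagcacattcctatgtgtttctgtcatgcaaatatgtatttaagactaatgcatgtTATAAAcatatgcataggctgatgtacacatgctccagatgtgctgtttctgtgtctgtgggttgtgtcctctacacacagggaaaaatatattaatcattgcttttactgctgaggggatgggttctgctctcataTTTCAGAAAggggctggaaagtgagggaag
Dpt: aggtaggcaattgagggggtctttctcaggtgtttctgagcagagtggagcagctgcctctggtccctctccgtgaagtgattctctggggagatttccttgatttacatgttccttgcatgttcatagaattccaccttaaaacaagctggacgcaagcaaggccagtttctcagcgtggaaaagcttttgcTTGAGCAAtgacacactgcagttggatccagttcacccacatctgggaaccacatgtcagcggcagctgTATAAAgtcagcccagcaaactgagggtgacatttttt
Both hold TATAAA, at -117 from the start in Col3a1 and at 12 past it in Dpt, and 13.6% of the 32851 promoters hold these letters somewhere in the window. Of the 26 named genes past the test, 18 have a promoter in the table, 16 of those that fell and 2 of those that rose. Among the 16, TATAAA was found in 3, CCAAT in 4, GGGCGG in 7, TTNNGNAA in 4, the AP-1 motif TGANTCA in 3 and the ETS motif CCGGAA in 2. Over all promoters, TGANTCA is held by 7.8% and CCGGAA by 14.9%. The shares count single promoters, whereas a gene was counted if any of its promoters held the motif. Cavin1, Fbln1 and Ly6c2 have 2 RefSeq promoters each, so counts and shares are not in the same unit.

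Genes of the blood vessel lining were lower throughout. Of 16 endothelial genes, 15 were measured and all 15 were lower, with a median of -1.41, and 12 had an unadjusted p under 0.05, against 4.02% of all genes. At the adjusted threshold 2 of the 15 fell, where 0.113% of all genes did. Tie1, an orphan receptor that modulates angiopoietin signals, was 4.92, 5.48 and 5.30 on intact arrays and 3.22, 3.92 and 4.42 at the lowest, median and highest resected array, and it fell by 1.30 (SE 0.22, adjusted p = 0.039). Ecscr, an endothelial surface regulator of migration, was 3.73, 4.83 and 4.18 against 2.07 to 3.05, and it fell by 1.55 (SE 0.23, adjusted p = 0.0324). Outside the list, Ephb4, the venous receptor of ephrin-B2, fell by 1.38 (SE 0.19, adjusted p = 0.0175) and Cavin1, which coats caveolae, by 1.52 (SE 0.26, adjusted p = 0.0407).

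None of the other endothelial genes passed the test. Cdh5, the junction protein of endothelium, was at -1.44 with adjusted p = 0.801, Pecam1 at -1.33 with 0.545, and Kdr, the receptor of VEGF, at -1.49 with 0.395. The mean level of the list was 5.89 to 6.74 on intact arrays and 4.07 to 6.15 on resected arrays, where replicate 1 of day 3 was highest and lay inside the intact range. Without the 3 arrays of weak control separation, that one among them, 10 of the 15 fell, as did 10 of the 17 fibroblast genes, against 1.28% of all genes.

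**Figure D3:**
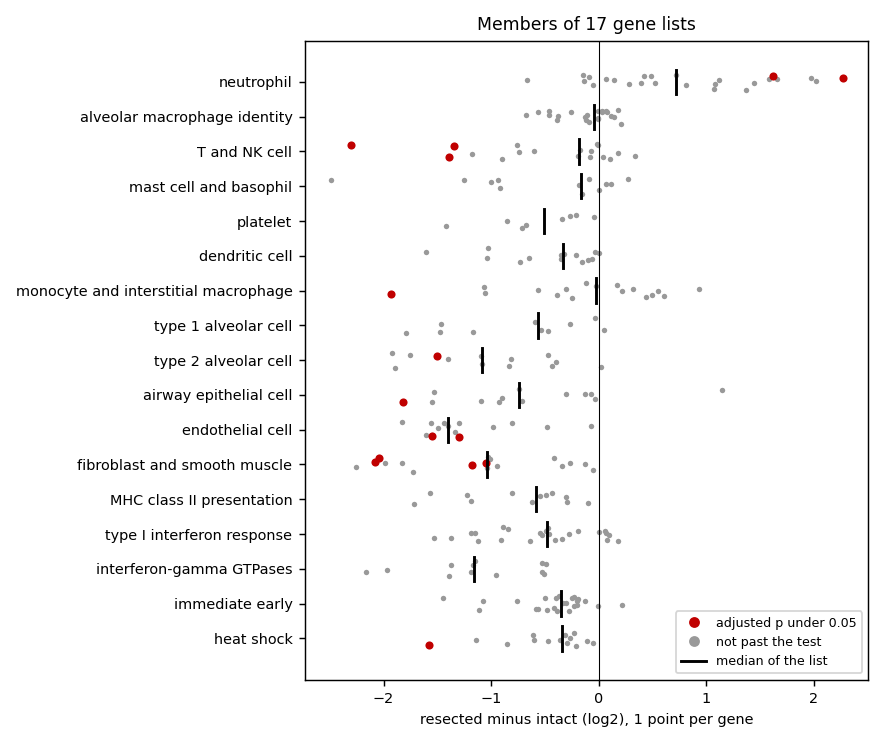
Log2 difference, resected minus intact, of every measured member of 17 of the gene lists, 1 row per list, with the list's median marked and members past the test coloured. All 15 endothelial and all 17 fibroblast genes lie left of 0, while the neutrophil list, with a median of 0.72, lies mostly to the right.

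Epithelial genes were lower too. Sftpd encodes surfactant protein D, a collectin of type 2 alveolar cells. It was 4.24, 4.38 and 4.94 on intact arrays and 2.49, 3.05 and 3.67 at the lowest, median and highest resected array, all below the background limit, with a difference of -1.50 ± 0.25 (adjusted p = 0.039). Of 13 type 2 genes measured, 12 were lower, with a median of -1.09; Sftpd was the only one past the test, where 0.113% of all genes fell, and 5 were lower without overlap, where 0.959% were. Sftpc, surfactant protein C and the list's brightest gene, was 10.81, 11.33 and 11.20 on intact arrays and 6.28, 9.36 and 10.31 at the lowest, median and highest resected array. The groups did not overlap, yet the spread of the resected arrays left the difference of -1.92 ± 0.60 with adjusted p = 0.481.

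In the airways, Tppp3, a tubulin-binding protein of ciliated cells, was 7.03, 7.47 and 6.71 on intact arrays and 4.44, 5.27 and 6.37 at the lowest, median and highest resected array. It fell by 1.82 (SE 0.32, adjusted p = 0.0464). Scgb1a1, the secretoglobin of club cells, was 10.05, 10.61 and 11.37 against a resected range of 8.32 to 9.87, and differed by -1.53 ± 0.34 (adjusted p = 0.15). Of 13 airway genes, 12 were lower and 1, Epcam, was higher by 1.14 (adjusted p = 0.561). Of 10 type 1 alveolar genes, 9 were lower, with a median of -0.57 and none past the test. The mean level of the type 2 list was 6.09 to 6.48 on intact arrays and 4.08 to 6.04 on resected arrays.

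Lymphocyte genes were lower in part. Gzma, the granzyme A of cytotoxic T and NK cells, had the largest fall of the 23 past the test. It was 5.04, 5.88 and 6.52 on intact arrays and 2.61, 3.47 and 4.36 at the lowest, median and highest resected array. It fell by 2.30 (SE 0.37, 4.94-fold, adjusted p = 0.0349). Gzmb, granzyme B, was 3.81, 4.19 and 4.37 against 2.10 to 3.43 and fell by 1.35 (SE 0.23, adjusted p = 0.0433). Ccl5, a chemokine that activated T and NK cells release, was 5.53, 5.34 and 5.64 against 3.10, 4.12 and 4.53, and fell by 1.39 (SE 0.24, adjusted p = 0.0407). Icos, the inducible costimulator of T cells, fell by 1.47 (SE 0.23, adjusted p = 0.0349) from 5.40, 4.54 and 5.36.

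No other gene of the T and NK list passed the test. Of 20 listed, 18 were measured, 14 of them with an intact mean below the background limit; 4 were higher and 14 lower, with a median of -0.18. The 3 past the test were Gzma, Gzmb and Ccl5, against 0.113% of all genes. With Nkg7 and Il2rb, at -0.90 and -1.18, 5 were lower without overlap, against 0.959% of all genes. Cd8a was at 0.00, Cd4 at 0.18, Prf1, the pore-forming perforin, at 0.10 and Ncr1 at 0.04. The mean level of the list was 3.69 to 3.89 on intact arrays and 3.08 to 3.41 on resected arrays. B and plasma cell genes had a median of -0.15 and none passed, but all 12 measured had an intact mean below the background limit.

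Promoters of the granzymes are shown because both genes fell and encode proteases of the same granules. Gzma lies at chr13:113100932-113101231 and Gzmb at chr14:56262285-56262584, both on the minus strand of GRCm38.p6, from RefSeq. Capitals mark CCAAT, read on the opposite strand as ATTGG in Gzma, and TGANTCA in Gzmb.
Gzma: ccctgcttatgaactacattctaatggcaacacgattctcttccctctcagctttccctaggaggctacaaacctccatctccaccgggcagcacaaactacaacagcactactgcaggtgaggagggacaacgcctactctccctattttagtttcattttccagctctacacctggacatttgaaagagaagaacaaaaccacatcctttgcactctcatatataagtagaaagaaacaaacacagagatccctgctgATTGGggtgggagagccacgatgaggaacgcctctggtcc
Gzmb: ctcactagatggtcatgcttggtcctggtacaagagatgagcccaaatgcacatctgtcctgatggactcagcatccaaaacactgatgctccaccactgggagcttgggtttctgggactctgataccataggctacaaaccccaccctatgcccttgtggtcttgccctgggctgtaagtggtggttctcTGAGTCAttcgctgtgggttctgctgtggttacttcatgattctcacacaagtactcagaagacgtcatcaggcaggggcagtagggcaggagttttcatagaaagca
The pair shares none of the 6 motifs searched.

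Ly6c2, a surface protein of inflammatory monocytes, was the brightest gene that fell and the only one whose resected mean, 7.26, stood above the background limit. It was 8.63, 9.20 and 9.74 on intact arrays and 6.28, 7.41 and 8.09 at the lowest, median and highest resected array, and it fell by 1.93 (SE 0.34, 3.82-fold, adjusted p = 0.0433). Its close paralog Ly6c1, which endothelium and lymphocytes also express, differed by -1.41 ± 0.42 (adjusted p = 0.423), and probes of the pair may share RNA. No other monocyte gene passed the test, so 1 of 17 measured fell past it, where 0.113% of all genes did. Of the 17, 8 were higher and 9 lower, with a median of -0.03. Ccr2, the chemokine receptor of monocytes, was at -1.07 (adjusted p = 0.518), and C1qb and Fcgr4 were at 0.49 and 0.61.

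The remaining falls belong to no list or to one that otherwise did not pass. Adh1, an alcohol dehydrogenase that also oxidises retinol, was 5.25, 5.76 and 6.48 on intact arrays and 3.01, 3.47 and 4.71 at the lowest, median and highest resected array, and fell by 2.25 (SE 0.30, adjusted p = 0.0138). Serpinb10, a protease inhibitor of blood cells, fell by 1.84 (SE 0.29), from 4.47, 4.98 and 5.51 to a resected median of 3.04. Hspb1, a small heat shock protein, fell by 1.58 (SE 0.28). It was the only one of 14 heat shock genes past the test, where 0.113% of all genes fell. All 14 were lower, with a median of -0.34. F3, tissue factor, which starts coagulation, fell by 1.03 (SE 0.18). Rtl8b, a retrotransposon-derived gene, fell by 1.07 (SE 0.15), and its near copy Rtl8a differed by -1.10 (adjusted p = 0.0951). The probe set without a symbol fell by 1.53 (SE 0.27).

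Dim signal is common among the falls. Of the 23 probe sets that fell, 16 had an intact mean below the background limit, and 22 had a resected mean below it. Only 5 of the 27 had a mean over all arrays above the limit. When the limma test was confined to the 5148 probe sets above it, none passed (smallest adjusted p = 0.0743, with 280 at an unadjusted p under 0.05). This restriction does not alter the differences themselves.

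Antigen presentation and interferon genes were lower on most resected arrays without any passing the test. The MHC class II presentation list had 12 measured genes, all of them lower, with a median of -0.58. H2-Ab1, a class II chain, was 10.04, 9.09 and 9.29 on intact arrays and 5.20, 7.95 and 8.78 at the lowest, median and highest resected array, without overlap, and its difference was -1.72 ± 0.54 (adjusted p = 0.497). All 15 class I genes were lower by a median of -0.40. Among the 12 interferon-gamma GTPases and related genes, all were lower, with a median of -1.16. Igtp, an immunity-related GTPase, was 6.05, 6.51 and 7.06 against 4.24, 5.25 and 5.69, and its difference was -1.40 ± 0.28 (adjusted p = 0.0913). Of 24 type I interferon response genes, 18 were lower, with a median of -0.48. The intact mean was below the background limit for 18 of the 24. The interferon-induced Ifit3 was at -1.53 ± 0.33 (adjusted p = 0.127), and Ifit3b, a near copy, at -1.37.

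Leaving out the 3 arrays of weak control separation brought 9 of the 12 interferon-gamma genes, and H2-Ab1 and H2-Eb1, past the test as lower, where 1.28% of all genes were. One of those arrays, replicate 2 of day 1, had the lowest mean level of the class II and the interferon-gamma lists, 5.64 and 4.63. Another, replicate 1 of day 3, stood inside the intact range of the interferon-gamma list, at 7.29 against 6.98 to 7.37.

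**Figure D4:**
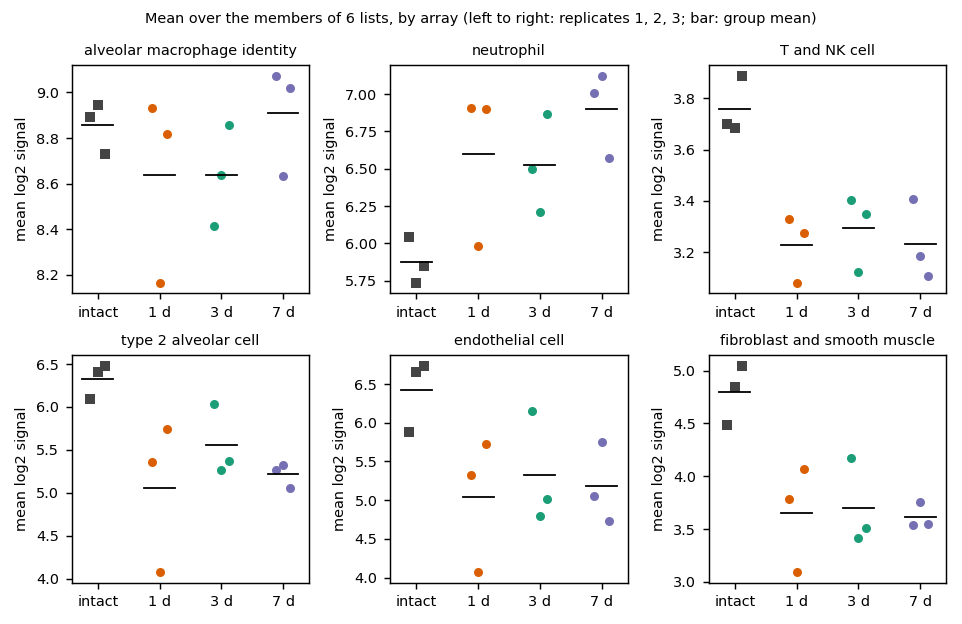
Mean log2 level of the measured members of 6 lists on each of the 12 arrays, by group, with replicates from left to right and a bar at the group mean. In the fibroblast, type 2 and T and NK lists the 9 resected arrays lie below the 3 intact arrays without overlap, and replicate 2 of day 1 is the lowest resected array in all 6.

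Immediate early genes, cytokines and growth factors held no gene past the test. Of 24 immediate early genes, 23 were lower, with a median of -0.35. Nr4a1, an orphan nuclear receptor, was 9.38, 9.44 and 9.31 on intact arrays and 8.48 to 9.28 on resected arrays (-0.57 ± 0.16, adjusted p = 0.376). Il6 was at -1.81 ± 0.64 (adjusted p = 0.664), from 10.25, 9.20 and 9.50 to between 5.20 and 9.43. Of 30 growth factors and receptors known from liver regrowth, 9 were higher and 21 lower, with a median of -0.19. For 23 of the 30 the intact mean was below the background limit. Tgfb2, with an intact mean of 3.26 below that limit, was nearest, at -0.68 ± 0.13 (adjusted p = 0.0642). Hgf, the main hepatocyte mitogen, was at -0.66 ± 0.41, and by day at -1.43, 0.06 and -0.60. Of 12 mast cell and basophil genes measured, 4 were higher and 8 lower, with a median of -0.17 and none past the test. An intact mean below the background limit was found for 9 of the 12. Mcpt8, a basophil protease, was 3.65 and 4.02 on intact replicates 1 and 2 and 7.08 on replicate 3. All 3 lay above the resected arrays, at 2.13 to 3.45, and the difference was -2.49 ± 0.52 (adjusted p = 0.113).

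No gene that defines the alveolar macrophage passed the test. Of the 22 identity genes, 8 were higher and 14 lower, with a median of -0.05. By day the median was -0.21, -0.24 and -0.003. The lower members include Car4 at -0.68 ± 0.40 (SE), Cidec at -0.56 ± 0.26 (unadjusted p = 0.0493, limma) and Itgax at -0.46 ± 0.36. Marco was at -0.003 ± 0.33, and Mrc1 was higher, at 0.17 ± 0.16. Pparg, the nuclear receptor on which these cells depend, was 8.83 ± 0.11 (SD, n = 3) on intact arrays and 8.82 ± 0.23 (SD, n = 9) on resected arrays. Siglecf, the antigen of the sort, was 8.79 ± 0.13 (SD, n = 3) and 8.54 ± 0.28 (SD, n = 9). Chil3, a chitinase-like protein that these cells make in quantity, differed by 0.11 ± 0.15. Lists of the lysosome, fatty acid oxidation, cholesterol synthesis and Toll-like receptors had medians of -0.02, -0.06, 0.05 and 0.09, with no gene past the test in any of them.

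The 27 probe sets were similar in size across days. The differences of the days from intact share the 3 intact arrays and are given side by side. Mrgpra2b was higher by 2.28, 1.90 and 2.63 at days 1, 3 and 7, Slc40a1 by 1.53, 1.83 and 1.55, Mmp9 by 1.44, 1.46 and 1.95, and Gca by 1.50, 1.26 and 1.34. Col3a1 differed by -1.77, -2.37 and -2.10, Gzma by -2.39, -1.93 and -2.60, Ly6c2 by -1.92, -1.91 and -1.98, and Ephb4 by -1.31, -1.42 and -1.39. Within a probe set the smallest day difference was at least 0.551 times the largest, with a median of 0.773 over the 27. A test that pools the days favours probe sets of like size on all of them. Of the 27, Sftpd and Tppp3 had an unadjusted p under 0.05 in the F test among days (0.00323 and 0.0429). That share is near the 7.3% of all probe sets, so it says nothing particular about the 27. Sftpd differed by -1.43, -1.09 and -1.98, and Tppp3 by -2.18 at day 3 and -1.28 at day 7.

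Over all probe sets, no difference among the 3 days passed limma's F test (smallest adjusted p = 0.266), and 1621 (7.3%) had an unadjusted p under 0.05. Values by day follow for 5 genes with small p values in that test. Cd63, a tetraspanin of late endosomes, was higher by 0.27, 1.90 and 0.63 at days 1, 3 and 7, and by 0.93 ± 0.42 when pooled (adjusted p = 0.952). Ccr3, the eotaxin receptor of eosinophils, was at -0.30, 2.14 and 2.71, and Il5ra, their interleukin-5 receptor, at -0.11, 1.57 and 1.24. The histone gene H4c11 was at -0.29, -0.96 and 0.05, and Cdo1, a cysteine dioxygenase, at -0.36, 1.25 and -1.14.

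**Figure D5:**
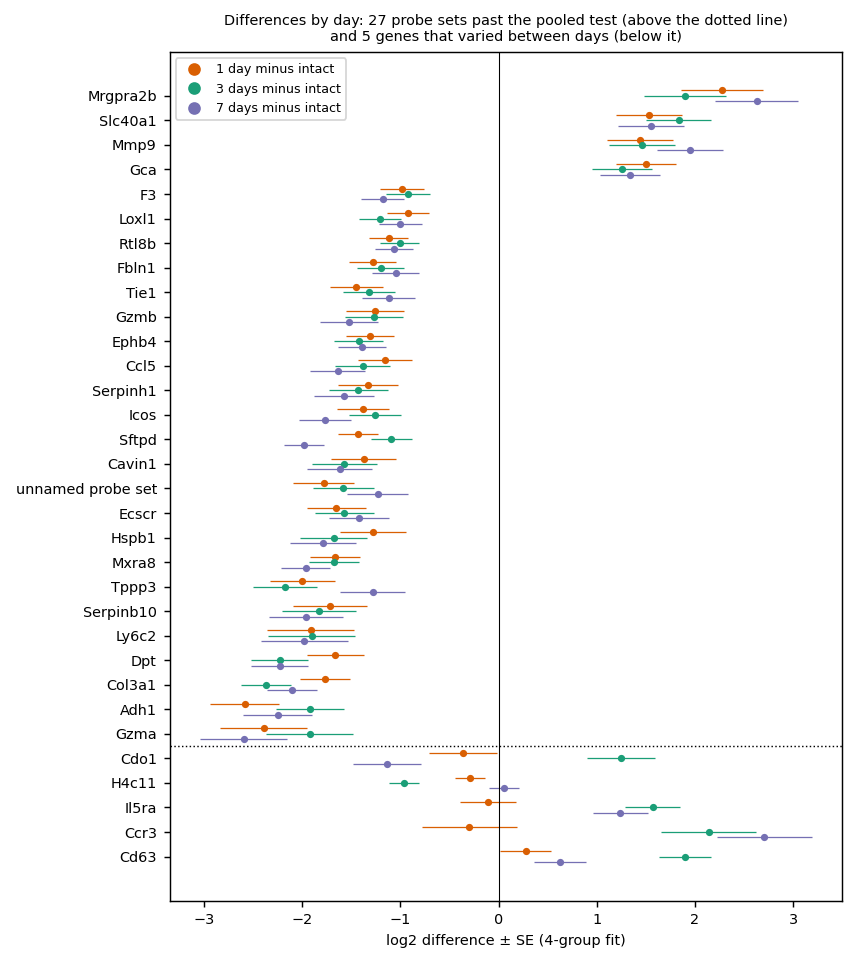
Log2 difference from the intact arrays, with its SE from the fit of 4 groups, at days 1, 3 and 7. The 27 probe sets past the pooled test lie above the dotted line. All 3 of their days lie on the same side of 0, as follows from the lack of overlap. Below the line are 5 genes with small unadjusted p values in the F test among days, none of which passed it (adjusted p = 0.266 each). Cd63, for example, was at 0.27, 1.90 and 0.63.

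How many probe sets passed depended on single arrays. Without intact replicate 2 or intact replicate 3 none passed (751 and 613 at an unadjusted p under 0.05, limma), and without intact replicate 1 there were 16. Without replicate 1, 2 or 3 of day 1 there were 13, 50 and 15, of day 3 there were 118, 8 and 9, and of day 7 there were 12, 13 and 9. Without all arrays of day 7 none passed, and without those of day 1 or day 3 there were 23 and 24. Without the 3 arrays of weak control separation there were 314, including all 27. With the level of the hybridisation control as a block, Col3a1 alone passed, and this block leaves only the day 3 arrays to set against intact. Day 3 against intact alone, where that level was alike, gave none past the test (1834 at an unadjusted p under 0.05, limma). With the control separation as a covariate there were 6, and with the intron control level 5. The direction of all 27 held in every one of these fits, each with an unadjusted p under 0.05. Because the groups did not overlap, leaving arrays out could not have changed that direction.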

How the data were processed

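RNA of Siglec-F sorted lung cells was measured on 12 Clariom S mouse arrays. The deposited table holds log2 expression values per probe set; the submitters' processing notes name Transcriptome Analysis Console and RMA, with no version or build given in the sources used here. These log2 values were used as the authors deposited them. Of 28846 probe sets, 6640 controls were left out of the tests. Gene symbols came from the platform annotation.

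Resected (9) and intact (3) arrays were compared with limma 3.58.1 in R 4.3.3 (lmFit, eBayes, 10 residual degrees of freedom, two-sided), with Benjamini-Hochberg adjustment over all 22206 probe sets at 0.05. The test was checked on simulated data with independent noise on each array. That simulation held no differences in array quality or between days, so the check does not cover them. The SD of the resected arrays includes differences between days. For lists, each gene is represented by its brightest probe set. P-values measure only the spread between these samples. The members and lists were chosen with earlier results of these data known. Genes were named if among the 15 largest changes in a direction that passed the test without overlap (places left filled by the smallest p without overlap), among the 3 smallest p of a list, among the 5 smallest p in the F test among days, or fixed by name; other genes past the test, other list members, Rtl8a and Ly6c1 were picked after their values were seen. Not named were predicted genes, small RNAs, receptors for smell and segments of antigen receptors. The number of arrays limits precision. Promoters came from RefSeq.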

Additional observations from a re-analysis of the deposited data

Results flagged for a closer look

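Among the 9 resected arrays, 1 array stood apart from the others in 9 of the 98 values examined, by the ratio of its gap to the nearest array to the whole range; chance gives about 1 in 20 such cases. Replicate 2 of day 1 was lowest for Sftpc (6.28), H2-Ab1 (5.20), H2-Eb1 (4.77) and Tap1 (5.60) and highest for Mcpt8 (3.45). Replicate 1 of day 3 was highest for Adh1 (4.71) and Gbp3 (7.09), and replicate 3 of day 3 was highest for Slc40a1 (6.66, from 6.655). Replicate 2 of day 7 was lowest for Ccl5 (3.10, from 3.105).

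The labelling control dap, which is no gene of the mouse and is used here only to set arrays apart, was at 6.88 (6.885) on replicate 1 of day 3, 7.77 on replicate 2 of day 7 and 6.47 on replicate 3 of day 7, against 2.13 to 2.40 on the intact arrays.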

How the results depend on the processing

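All 27 probe sets kept their direction in every setting in which they were tested. As their groups did not overlap, leaving out arrays, days or probe sets could not have turned it. Counts of probe sets higher and lower (4 and 23) moved as follows. They were 1 and 9 in the fit of 4 groups, 8 and 31 with an intensity trend and robust variances, and 0 and 0 above the 95th percentile of intron controls. Quantile normalization gave 8 and 20, so that 71.4% of calls were lower against 85.2%, and median centring gave 2 and 12. Array weights gave 67 and 388, and an adjusted p of 0.1 gave 9 and 40. Leaving out 1 array gave 0 to 15 higher and 0 to 109 lower. Without day 7 both were 0. Without arrays of weak control separation they were 46 and 268, and without those with the labelling control 5 and 57. With the labelling control as a block they were 1 and 6, with the hybridisation control level as a block 0 and 1, and with day 3 alone 0 and 0. With control separation as a covariate they were 2 and 4, with the intron control level 2 and 3, and without both intact replicate 3 and replicate 2 of day 1 they were 2 and 3; these last fits were chosen after seeing the data. Fewer arrays or probe sets entered some of these fits; otherwise the cause was not tested. Differences among days went from 0 calls to between 0 and 3 with 1 array left out, and to 7 without arrays of weak control separation. Hgf turned from -0.66 to 0.057 with the hybridisation control level as a block and with day 3 alone. Both fits estimate the same difference, since that block leaves only the day 3 arrays to set against intact.

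With the replicate number as a block, 6 were higher and 15 lower. The labels do not say whether equal numbers pair samples. Of 18 pairs of arrays with the same number, 3 had correlated deviations above 0.1 (range -0.24 to 0.26). Likewise, 3 of 12 arrays correlated best with their own number. With 3 arrays per group, these correlations cannot decide whether samples were paired.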
